A study of Mus musculus with 18 samples.

Results

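The 9 genes described here are Krt5, Krt14, Krt15, Krt17, Krt10, Krtdap, Trp63, Sfn and Perp, which are used as markers of epidermis and keratinocytes. They were taken by symbol, as 9 of the 53672 genes in the count files, with results of these data already known, so their counts of calls are a description. They were measured by RNA-seq in mouse E14TG2a embryonic stem cells (ESCs) that carry conditional alleles of both Hdac1 and Hdac2 and stably express a Flag-tagged HDAC1 construct, either HDAC1-WT, HDAC1–E63R or HDAC1–Y48E. Each of the 3 rescue lines was left untreated or was treated with 1 µM 4-hydroxytamoxifen (OHT), which removes the endogenous Hdac1/2 genes and leaves the construct as the source of HDAC1. The labels give 5 days of treatment, whereas the study's methods describe a shorter exposure followed by further culture. There were 3 libraries in each of the 6 groups. All groups therefore share the conditional alleles and a construct, and the untreated groups hold endogenous HDAC1/2 and the construct together. Per the study, the construct entered by piggyBac transposition, HDAC1–Y48E was found to keep the SIN3 complexes alone, and HDAC1–E63R to keep SIN3, MIER and RERE partners and some CoREST, with markedly less NuRD and MiDAC. The labels name 1 line per construct, so the construct and the line cannot be told apart. The study describes the libraries of a group as biological replicates, and the labels do not say more.

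Keratins are the intermediate filament proteins of epithelia and work as pairs of a type I and a type II protein. In the epidermis, Krt5 and Krt14 form the pair of the basal layer, where the stem and dividing cells sit, Krt15 is a further basal keratin, Krt17 appears in hair follicles and in wounded or stressed skin, and Krt10 pairs with Krt1 once cells leave the basal layer. Trp63 encodes p63, the transcription factor required for a stratified epidermis. Krtdap encodes a small secreted protein of differentiating keratinocytes, Sfn encodes 14-3-3 sigma, and Perp encodes a membrane protein of desmosomes that is known as a target of p53 and p63. None of these genes is used as a marker of ESCs, and Krt8, Krt18 and Krt19, the keratins of simple epithelia, are a separate group that is described further on.

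In the GENCODE M21 annotation of GRCm38 (mm10), the 4 type I keratin genes lie in the cluster of chromosome 11, all on the minus strand: Krt10 at chr11:99385254-99389364, Krt15 at chr11:100131758-100135928, Krt14 at chr11:100203162-100207548 and Krt17 at chr11:100256217-100261029. Krt5 lies in the type II cluster at chr15:101707070-101712898, also on the minus strand. Krtdap lies at chr7:30787896-30791097 on the plus strand, Trp63 at chr16:25683763-25892102 on the plus strand, Sfn at chr4:133600556-133602168 on the minus strand and Perp at chr10:18845020-18857073 on the plus strand. All 9 are annotated as protein coding, and Sfn has a single exon.

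The next sequence is shown as the longest stretch that Krt14 and Krt17 share. These 2 genes align over 754 bases at 90.7% identity, with a longest identical run of 71 bases inside the coding sequence of both, at chr11:100204114-100204184 in Krt14 and chr11:100257439-100257509 in Krt17. Per the study the reads were paired and longer than that run, so a full-length read over it also covers bases outside it. How reads were divided between the 2 genes was not tested.
Krt14 and Krt17, shared coding stretch: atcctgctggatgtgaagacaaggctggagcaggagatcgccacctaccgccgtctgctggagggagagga

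Sfn has a near-identical copy, Gm7850, with 97.5% identity over 712 bases, which received 0 to 27 counts in a library, against 293 to 2065 for Sfn. Gm44323 overlaps 5.87% of the exon bases of Krt5 on the opposite strand, and Gm11940 overlaps 6.91% of those of Krt10. The strand setting of the counting is not given in the sources used here, so reads of these overlapping pairs may not be told apart.

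The 250 bases before the start were taken from RefSeq (GRCm38.p6) and are shown for 4 genes, since 3 of them were called in OHT-treated cells in the same direction and Krt10 in the other. RefSeq rows matched 5 of the 9 genes, and the row of Krt14 was not used because its start lies 1518 bases inside the GENCODE gene. Both strands were searched for TATAAA (the TATA box), TGANTCA (the AP-1 site), GCCNNNGGC (the AP-2 palindrome) and GGGCGG (a GC box). Capitals mark the matches found.
Krtdap, chr7:30787655-30787904, plus strand: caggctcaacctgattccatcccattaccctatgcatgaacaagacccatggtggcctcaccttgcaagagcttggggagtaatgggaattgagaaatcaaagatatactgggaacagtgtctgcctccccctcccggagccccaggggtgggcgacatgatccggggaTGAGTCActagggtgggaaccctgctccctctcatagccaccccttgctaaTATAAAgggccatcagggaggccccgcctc
Krt10, chr11:99389365-99389614, minus strand: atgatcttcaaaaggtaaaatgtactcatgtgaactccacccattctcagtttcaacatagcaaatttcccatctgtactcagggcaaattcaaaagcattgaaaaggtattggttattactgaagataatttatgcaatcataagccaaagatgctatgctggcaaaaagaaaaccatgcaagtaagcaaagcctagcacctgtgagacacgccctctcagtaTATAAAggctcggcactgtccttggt
Krt5, chr15:101712906-101713155, minus strand: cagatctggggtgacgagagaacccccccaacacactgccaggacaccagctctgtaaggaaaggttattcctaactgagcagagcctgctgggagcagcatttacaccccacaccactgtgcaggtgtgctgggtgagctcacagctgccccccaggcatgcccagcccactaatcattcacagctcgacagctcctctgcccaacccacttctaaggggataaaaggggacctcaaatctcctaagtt
Sfn, chr4:133602169-133602418, minus strand: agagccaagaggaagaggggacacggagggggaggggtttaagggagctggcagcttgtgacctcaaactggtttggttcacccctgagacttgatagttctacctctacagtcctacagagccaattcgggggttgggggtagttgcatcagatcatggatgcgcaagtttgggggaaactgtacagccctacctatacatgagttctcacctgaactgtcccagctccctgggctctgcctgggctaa

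The Krtdap window holds TATAAA 30 bases before the start and TGAGTCA 81 bases before it. The Krt10 window holds TATAAA 26 bases before the start. No match to these motifs was found in the Krt5 and Sfn windows, which says only that these letters are not there. Among 32851 RefSeq windows of the same length, 12.4% hold TATAAA, 6.75% hold TGANTCA, 13.7% hold GCCNNNGGC and 32.7% hold GGGCGG. A match is a description of letters and not a measured site.

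The libraries held 9019615 to 11454638 counts on genes, and 3 counts correspond to 0.248 to 0.343 CPM (counts scaled to a common library size with TMM factors), which was taken as the floor of a library. ESC markers were high in the untreated cells (Pou5f1 at 1066 to 1255 CPM as group means), so these are ESC cultures, and a gene that is low here may be low in all cells or present in a few, which bulk RNA cannot tell apart. The counts of Hdac1 and Hdac2 are over the whole gene and were not called in any line after OHT, so they do not check the deletion. The library HDAC1–E63R untreated replicate 3 stands apart: its counts differ from its 2 group mates by a chi-square of 60.4 and 67.1 per degree of freedom, against 3.38 to 7.42 for every other pair of replicates, and its TMM factor was 0.814 against 0.955 to 1.11. Its level of Dppa5a, an ESC gene, was 3721 CPM against 1684 and 1623 in the other 2. The calls and changes of the 9 genes in HDAC1–E63R cells are therefore also given without it.

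After OHT, none of the 9 genes was called in HDAC1-WT cells, 6 were called up in HDAC1–E63R cells (Krt5, Krt14, Krt17, Krtdap, Sfn and Perp) and 7 were called up in HDAC1–Y48E cells (the same 6 and Trp63). Krt10 was called down in HDAC1–Y48E cells, and Krt15 was too low to test. A call is an adjusted p under 0.01 and a change over 2-fold, with the p from edgeR's quasi-likelihood test over 18791 genes and Benjamini-Hochberg adjustment, the limits that the study states. Of all tested genes, 0.0373% were called up in HDAC1-WT, 4.74% in HDAC1–E63R and 10.8% in HDAC1–Y48E cells, and 5.84% were called down in HDAC1–Y48E cells. Krt5, Krt14 and Trp63 had at most 9, 4 and 6 counts in any library outside the OHT-treated mutant groups. They passed the filter on low counts through those groups alone, so these shares are no measure for their calls. For HDAC1-WT the count of 0 was edgeR's, with 4 members at an unadjusted p under 0.05, all higher after OHT (Krt5, Krt14, Krt17 and Sfn), and DESeq2 also called 0. Of all 18791 tested genes, 1852 had an unadjusted p under 0.05 there in edgeR. Without HDAC1–E63R untreated replicate 3 the count in HDAC1–E63R cells was 6, the same genes, against 4.71% of all genes called up.

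**Figure D1:**
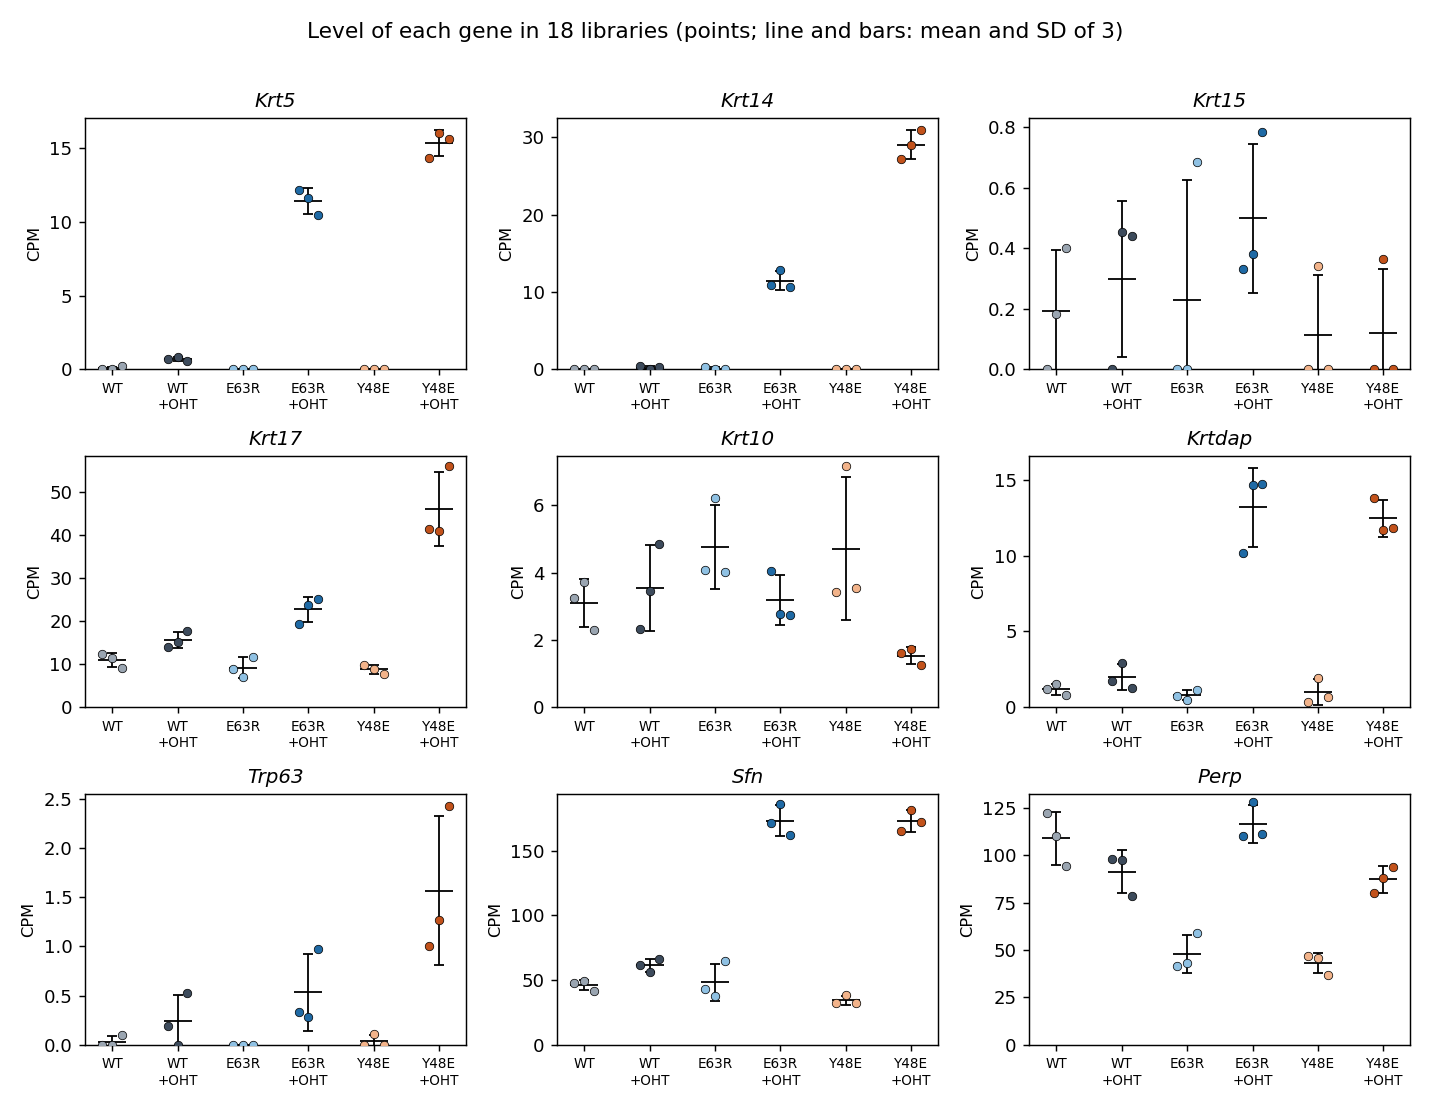
Level of each of the 9 genes in CPM (y axes, linear from 0) in the 6 groups of 3 libraries (points, with mean and SD). Krt5 and Krt14 are at or under 0.816 CPM in every library outside the OHT-treated HDAC1–E63R and HDAC1–Y48E groups, and Perp is lowest in the untreated groups of those 2 lines.

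Krt5 was at or near 0 in every untreated library, with 2 counts in one HDAC1-WT library and 0 in the other 8. OHT-treated HDAC1-WT cells had 7, 9 and 6 counts (0.674, 0.816 and 0.53 CPM), OHT-treated HDAC1–E63R cells had 147, 122 and 107 (12.2, 11.6 and 10.5 CPM), and OHT-treated HDAC1–Y48E cells had 143, 177 and 174 (14.4, 16.1 and 15.7 CPM). The 3 OHT-treated groups did not overlap, in the order HDAC1-WT, HDAC1–E63R, HDAC1–Y48E. With the untreated group at 0, the level after OHT was at least 35.7-fold higher in HDAC1–E63R cells (adjusted p 6.24e-08 in edgeR) and at least 46.3-fold higher in HDAC1–Y48E cells (adjusted p 4.14e-09 in edgeR). In HDAC1-WT cells the ratio was 10.7, with a 95% counting interval of 2.63 to 93.7 and an adjusted p of 0.093 in edgeR. The differences of the OHT effect from HDAC1-WT rest on groups at 0 and on 2 counts, and their calls depend on the tool. In edgeR they were not called, at 6.69 ± 1.87 log2 units (SE, adjusted p 0.0416) for HDAC1–E63R and 7.12 ± 1.9 (adjusted p 0.0114) for HDAC1–Y48E. DESeq2 called both.

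Krt14, the partner of Krt5, had 0 counts in every untreated HDAC1-WT and HDAC1–Y48E library and 3 counts in a single untreated HDAC1–E63R library. After OHT it had 4, 0 and 3 counts in HDAC1-WT cells, 131, 135 and 109 (10.8, 12.9 and 10.7 CPM) in HDAC1–E63R cells, and 271, 320 and 344 (27.2, 29 and 30.9 CPM) in HDAC1–Y48E cells. In HDAC1–E63R cells the level was 108 times that of the untreated cells, with a 95% counting interval of 36.8 to 528 from the 3 counts (adjusted p 2.96e-07 in edgeR). In HDAC1–Y48E cells it was at least 87.6-fold higher (adjusted p 1.86e-09 in edgeR). The interaction contrasts of Krt14 with HDAC1-WT have no usable error, since untreated HDAC1-WT is at 0, and edgeR called neither, while DESeq2 called HDAC1–Y48E minus HDAC1-WT (adjusted p 0.00101). Among OHT-treated cells, Krt14 was 1.34 ± 0.33 log2 units higher in HDAC1–Y48E than in HDAC1–E63R cells (adjusted p 0.00706 in edgeR), and that call was lost when any 1 of the 6 libraries was left out, with adjusted p from 0.0254 to 0.0448.

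Krt15 was at 8 counts or fewer in every library, between 0 and 0.783 CPM, and failed the filter on low counts, so it was not tested. All 6 groups of it overlap, and at this depth no difference was detectable.

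Krt17 was the only one of the 4 basal or stress keratins with clear counts in untreated cells, at 62 to 133 counts in a library. The untreated libraries lay at 12.4, 11.4 and 9 CPM in HDAC1-WT cells, 8.87, 7 and 11.7 in HDAC1–E63R cells and 9.79, 8.77 and 7.75 in HDAC1–Y48E cells. After OHT it was at 14.1, 15.1 and 17.8 CPM in HDAC1-WT cells, 19.4, 23.6 and 25 in HDAC1–E63R cells and 41.5, 40.9 and 56 in HDAC1–Y48E cells. Every treated library of a line was above every untreated library of the same line. The change was 0.51 ± 0.20 in HDAC1-WT cells (log2 ± SE, adjusted p 0.35), 1.30 ± 0.20 in HDAC1–E63R cells (adjusted p 5.95e-05) and 2.39 ± 0.20 in HDAC1–Y48E cells (adjusted p 4.10e-09), each from edgeR. The effect in HDAC1–Y48E cells exceeded that in HDAC1-WT cells by 1.88 ± 0.28 (adjusted p 4.07e-05 in edgeR), while the difference of HDAC1–E63R from HDAC1-WT, 0.79 ± 0.28, was not called (adjusted p 0.103).

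**Figure D2:**
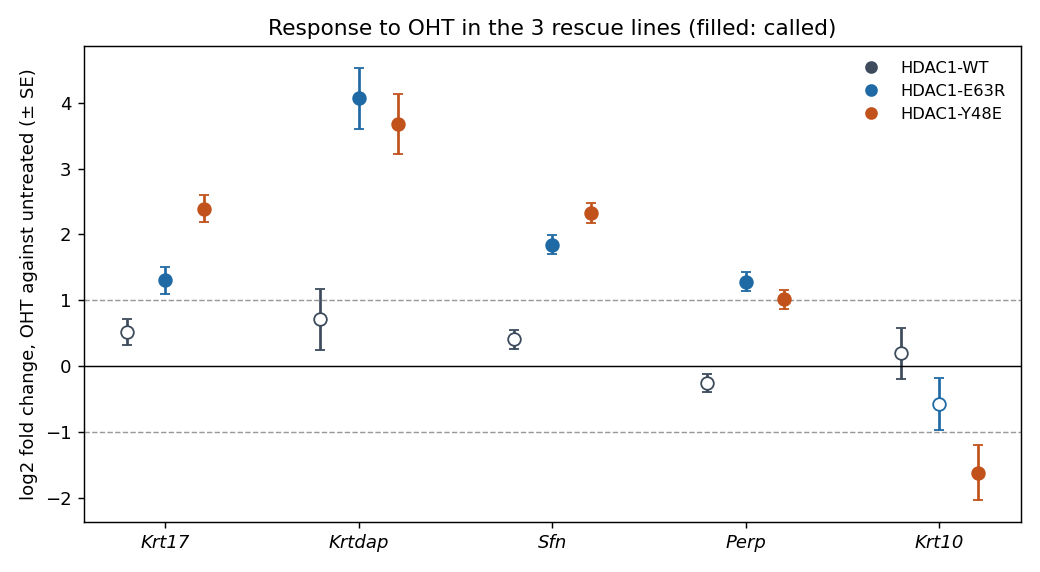
Log2 fold change of OHT-treated against untreated cells from edgeR, with an SE derived from its F statistic (y axis), for the 5 genes with counts in every library (x axis), by rescue line. Filled points were called, and dashed lines mark a 2-fold change. HDAC1-WT points lie between -0.25 and 0.71, and Krtdap, Sfn, Perp and Krt17 were called up in both mutant lines.

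Krt10, the suprabasal keratin, was 14 to 63 counts in every library. It was at 3.26, 3.72 and 2.3 CPM in untreated and 2.31, 3.45 and 4.86 in treated HDAC1-WT cells. It was at 4.07, 6.21 and 4 CPM in untreated and 4.06, 2.76 and 2.74 in treated HDAC1–E63R cells. In HDAC1–Y48E cells it was at 3.41, 7.17 and 3.55 CPM untreated and 1.61, 1.72 and 1.26 treated, the lowest group of the 6. The change was -1.61 ± 0.41 in HDAC1–Y48E cells (log2 ± SE, adjusted p 0.00318 in edgeR), with 5.84% of all tested genes called down there. That call rests on single libraries: without HDAC1–Y48E untreated replicate 2 it was -1.18 with an adjusted p of 0.037 in edgeR. Without HDAC1–Y48E OHT-treated replicate 1 or 3 the adjusted p was 0.0106 or 0.0176. Krt1, the partner of Krt10, was at 0.0739 to 1.27 CPM as a group mean.

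Krtdap, the gene of a secreted protein of differentiating keratinocytes, was at 0.33 to 1.94 CPM in the 9 untreated libraries. After OHT it was at 1.73, 2.9 and 1.24 CPM in HDAC1-WT cells, 10.2, 14.7 and 14.8 in HDAC1–E63R cells and 13.9, 11.7 and 11.9 in HDAC1–Y48E cells. The treated mutant libraries lie above every other library, and those of the 2 mutant lines overlap. The change was 0.71 ± 0.46 in HDAC1-WT cells (log2 ± SE, adjusted p 0.679), 4.07 ± 0.47 in HDAC1–E63R cells (adjusted p 1.75e-06) and 3.68 ± 0.45 in HDAC1–Y48E cells (adjusted p 1.07e-06), from edgeR.

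Trp63, the gene of p63, had 0 or 1 counts in every untreated library. After OHT it had 2, 0 and 6 counts in HDAC1-WT cells, 4, 3 and 10 in HDAC1–E63R cells and 10, 14 and 27 (1, 1.27 and 2.43 CPM) in HDAC1–Y48E cells. Every treated HDAC1–Y48E library is above every other Trp63 library. Its call there (adjusted p 0.00483 in edgeR) was lost in each of the 6 fits that left out a library of the comparison, and the ratio of 43.1 has a 95% counting interval of 7.40 to 1737. The levels remain far below those of Krt5 and Krt14, and the counts of HDAC1–E63R cells lie close to the floor.

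Sfn, the most abundant of the 9 with Perp, was at 47.8, 48.9 and 41.9 CPM in untreated HDAC1-WT cells, 42.8, 37.5 and 64.4 in untreated HDAC1–E63R cells and 32.2, 38.3 and 32.4 in untreated HDAC1–Y48E cells. After OHT it was at 61.9, 56.3 and 66 CPM in HDAC1-WT cells, 171, 186 and 162 in HDAC1–E63R cells and 165, 182 and 172 in HDAC1–Y48E cells. The treated mutant groups overlap each other and sit well above HDAC1-WT. The change was 0.41 ± 0.15 (log2 ± SE) in HDAC1-WT cells (adjusted p 0.298), 1.85 ± 0.15 in HDAC1–E63R cells (adjusted p 1.58e-08) and 2.33 ± 0.15 in HDAC1–Y48E cells (adjusted p 7.71e-11), by edgeR.

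Perp began at different levels in the lines. Untreated cells held 122, 110 and 94.4 CPM in HDAC1-WT, 41.7, 42.9 and 59.2 in HDAC1–E63R and 47.1, 45.7 and 36.9 in HDAC1–Y48E. After OHT it was at 98, 97.8 and 78.3 CPM in HDAC1-WT cells, 110, 128 and 111 in HDAC1–E63R cells and 80.1, 87.9 and 94.1 in HDAC1–Y48E cells. Against untreated HDAC1-WT, the untreated level was lower by -1.19 ± 0.14 in HDAC1–E63R cells (log2 ± SE, adjusted p 2.37e-06) and by -1.33 ± 0.15 in HDAC1–Y48E cells (adjusted p 6.99e-07), in edgeR, and it was the only one of the 9 genes called in these 2 comparisons of untreated cells, with 7.65% and 5.57% of all genes called in either direction. After OHT it rose by 1.28 ± 0.14 in HDAC1–E63R cells (adjusted p 1.48e-06 in edgeR) and by 1.02 ± 0.15 in HDAC1–Y48E cells (adjusted p 7.25e-06 in edgeR). The treated levels differed from OHT-treated HDAC1-WT by 0.35 ± 0.14 and -0.06 ± 0.14 log2 units, and neither was called. The rise in HDAC1–Y48E cells lies at the 2-fold limit, and was 0.91 without HDAC1–Y48E untreated replicate 3 and 0.96 without HDAC1–Y48E OHT-treated replicate 3, under that limit. In HDAC1-WT cells the change was -0.25 ± 0.14 (adjusted p 0.589 in edgeR).

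The genes called up started from different levels: Krt5, Krt14 and Trp63 from at or under the floor, Krtdap from 0.778 and 0.971 CPM in the 2 mutant lines, Krt17 from 9.18 and 8.77, Sfn from 48.2 and 34.3, and Perp from 48 and 43.2. Without HDAC1–E63R untreated replicate 3, the change in HDAC1–E63R cells was 1.5 for Krt17, 4.41 for Krtdap, 2.1 for Sfn and 1.46 for Perp on the log2 scale, each larger than with it, and untreated Perp was -1.36 against HDAC1-WT. Krt5 and Krt14 stayed called up without it (adjusted p 8.82e-12 and 2.60e-11 in edgeR), and Krt10 at -0.68 (adjusted p 0.27) and Trp63 (adjusted p 0.0576) stayed uncalled.

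The differences of the OHT effect from that in HDAC1-WT were called for Krtdap (3.36 and 2.97 log2 units for HDAC1–E63R and HDAC1–Y48E), Sfn (1.44 and 1.92) and Perp (1.54 and 1.27), and for Krt17 in HDAC1–Y48E cells only, where the difference between the 2 mutant lines in that effect, 1.09 ± 0.28, was not called (adjusted p 0.0249 in edgeR). Of all genes, 1.68% were called for HDAC1–E63R minus HDAC1-WT, 8.62% for HDAC1–Y48E minus HDAC1-WT and 1.31% for HDAC1–Y48E minus HDAC1–E63R, where none of the 9 was called in edgeR, 3 had an unadjusted p under 0.05 and DESeq2 called Krt17 alone. The comparisons with HDAC1-WT share its 6 libraries. The Krtdap difference of HDAC1–E63R from HDAC1-WT was 3.70 without HDAC1–E63R untreated replicate 3 and stayed called, as did Sfn at 1.69 and Perp at 1.71, but the adjusted p of Krtdap was 0.0102 to 0.016 when HDAC1-WT untreated replicate 1 or 2, HDAC1-WT OHT-treated replicate 1 or 3, or HDAC1–E63R OHT-treated replicate 2 or 3 was left out. That of HDAC1–Y48E from HDAC1-WT had an adjusted p of 0.0111 in edgeR without HDAC1-WT untreated replicate 2.

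Between OHT-treated cells, 4 genes were higher in HDAC1–E63R than in HDAC1-WT cells (Krt5, Krt14, Krtdap and Sfn), with 5.93% of all genes called up, and 5 were higher in HDAC1–Y48E than in HDAC1-WT cells (the same 4 and Krt17), with 11% called up. These 2 comparisons share the HDAC1-WT libraries. Krt5 and Krt14 passed the filter on low counts through the treated mutant groups alone, so these counts are a description. Against HDAC1-WT, Krt5 was 4.06 ± 0.41 log2 units higher in HDAC1–E63R and 4.49 ± 0.41 in HDAC1–Y48E cells, and Krt14 was 5.66 ± 0.51 and 7 ± 0.50 higher. Sfn was 1.49 ± 0.15 higher in both. Krt14 and Krt17 were higher in HDAC1–Y48E than in HDAC1–E63R cells, by 1.34 and 1.02 log2 units, where 2.37% of all genes were called up. The Krt17 difference was 0.86 without HDAC1–Y48E OHT-treated replicate 3 and 0.92 without HDAC1–E63R OHT-treated replicate 1, under the 2-fold limit. Krt5, Krtdap and Sfn were not called there, at 0.43 ± 0.32, -0.08 ± 0.36 and -0.003 ± 0.14 log2 units.

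Per kilobase of exon, the level in OHT-treated cells was 5.2 ± 0.395 CPM for Krt5 and 6.52 ± 0.695 for Krt14 in HDAC1–E63R cells (SD, n = 3), a ratio of Krt14 to Krt5 of 1.25. In HDAC1–Y48E cells it was 6.99 ± 0.404 for Krt5 and 16.5 ± 1.07 for Krt14, a ratio of 2.37. Krt17 was higher per length than either, at 14.6 ± 1.9 CPM in HDAC1–E63R and 29.7 ± 5.51 in HDAC1–Y48E cells. Krt8 was at 115 ± 7.32 and 379 ± 13 CPM per kilobase, so the simple epithelial keratin was 22.1 and 54.2 times Krt5 in these groups.

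**Figure D3:**
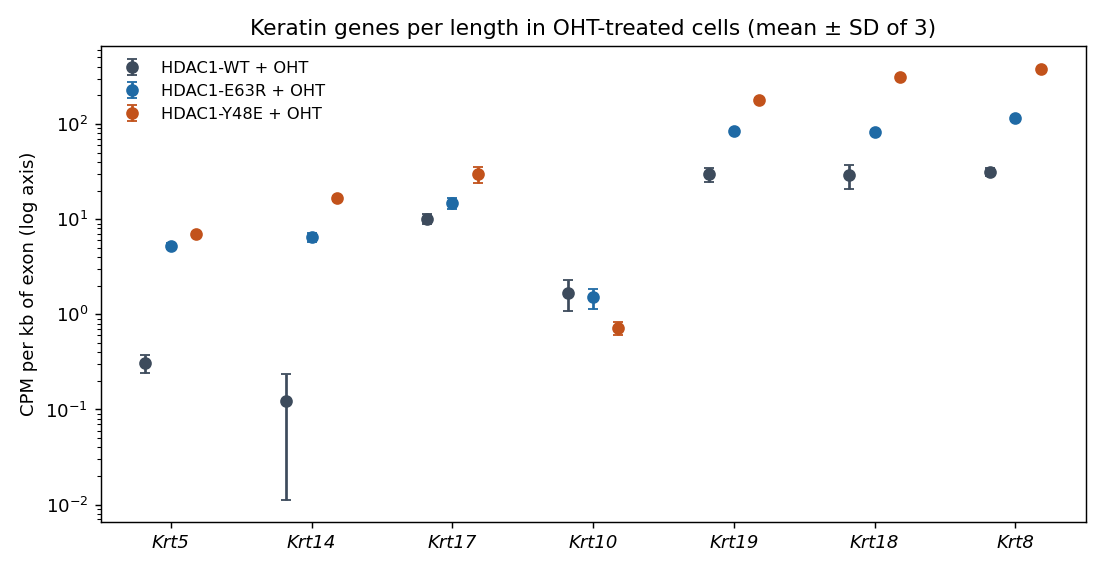
CPM per kilobase of exon (log y axis, mean and SD of 3 libraries) of keratin genes (x axis) in OHT-treated cells of the 3 lines. Krt8, Krt18 and Krt19 lie above Krt5 and Krt14 in every group, and Krt10 is lowest in HDAC1–Y48E cells.

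Genes with the most similar course over the 18 libraries were found by the mean absolute difference of centred log2 CPM. Only tested genes with a mean of at least 1 CPM in the group where the member was highest were compared. The gene nearest to Krt5 was Krt14 (0.51), followed by Dmkn (0.68), and the genes nearest to Krt14 were Akr1cl (0.51) and then Krt5 (0.51). Krt5 and Krt14 were at or under 0.816 CPM outside the treated mutant groups. Any gene low there and high in the treated mutant groups lies close to them, so their ranking is a description. Krt17 and Sfn shared Phlda1 among their 3 nearest genes (0.26 and 0.19), and Perp was nearest to Gsto1 (0.19). Krt10 was nearest to Tfap4 (0.22), and Trp63 to Gm37924 (0.37). Gm44323, second for Krtdap (0.50), overlaps Krt5 on the opposite strand.

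Beyond the 9 genes, the neighbouring genes of the epidermal programme were described from lists, whose counts stand against 4.74% of all tested genes called up in HDAC1–E63R and 10.8% in HDAC1–Y48E cells, and 1.18% and 5.84% called down. Their medians are from all 18 libraries and over tested genes only. Krt6a and Sprr1a had 0 or 1 counts in every library outside the treated mutant groups, so they passed the filter through those groups alone. Such genes raise the medians of their lists in the mutant lines, and these medians are a description. Of epidermal structural keratins outside the 9, 6 of 14 were tested, with 2 called up in both mutant lines, Krt80 and Krt6a, a keratin of wounded skin at 1.36 CPM in treated HDAC1–E63R and 2.62 in treated HDAC1–Y48E cells. Both calls in HDAC1–E63R cells were lost without HDAC1–E63R untreated replicate 3, with adjusted p of 0.0119 and 0.0186 in edgeR. The list's median log2 change was 2.1 and 2.44, against 0.03 and 0.05 over all tested genes.

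Of the simple epithelial keratins, 4 of 6 were called up in HDAC1–E63R cells and 5 of 6 in HDAC1–Y48E cells, with medians of 1.67 and 2.96 log2 units. The median in HDAC1–E63R cells was 1.39 with the gene of an empty group at its bound. Krt8 changed from 68.9 to 225 CPM in HDAC1–E63R cells and from 56.4 to 742 CPM in HDAC1–Y48E cells, and Krt18 from 53.4 to 119 and from 41.8 to 449. In HDAC1-WT cells Krt8 was at 48.9 CPM untreated and 61.6 treated, and was not called.

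Of epidermal transcription regulators, 22 of 25 were tested. HDAC1–E63R cells had 3 called up, Gata3, Grhl2 and Msx2, and HDAC1–Y48E cells had 4 up, including Gata3 and Grhl2, and 4 down, including Grhl3, Elf3 and Prdm1. In HDAC1–Y48E cells DESeq2 called 5 up and 3 down, with Msx2 added and Elf3 not called. Elf3 went from 77.9 to 38 CPM there and Grhl3 from 50.6 to 24.6, both near the 2-fold limit. The median changes of 0.16 and 0.23 were near those of all genes. Grhl2, an epithelial transcription factor, was at 26.6 CPM in treated HDAC1–E63R and 55.1 in treated HDAC1–Y48E cells, from 12.8 and 21.3. Tfap2c was at 102 and 54.1 CPM and Klf4 at 121 and 139, and neither was called.

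Of basal adhesion and basement membrane genes, 17 of 18 were tested, and 5 were called up in HDAC1–E63R and 7 in HDAC1–Y48E cells, with medians of 0.63 and 0.93. Col7a1, the anchoring fibril collagen, was called up in both, from 6.09 to 24.9 CPM and from 4.1 to 19, as was Fgfr2, and Cdh3 down in HDAC1–Y48E cells. Itga6 and Itgb4, the hemidesmosome integrin, were not called in any line, at 227 and 25.8 CPM in treated HDAC1–E63R cells.

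Of desmosome genes, 8 of 11 were tested and 1 was called up in each mutant line, Dsc2 in HDAC1–E63R and Pkp3 in HDAC1–Y48E cells, which for HDAC1–Y48E is near the share of all genes. Dsp, at 0.58 and 0.52 log2 units, stayed under 2-fold, and Jup was not called. Of cornified envelope and late differentiation genes, 16 of 30 were tested, and 3 were called up in HDAC1–E63R (Dmkn, Ppl and Sprr1a) and 5 in HDAC1–Y48E cells (those and Elovl4 and Sbsn), with median changes of 0.86 and 1.24 (1.09 and 1.24 with genes of an empty group at their bound). Ivl was at 0 in 17 of the 18 libraries and had 2 counts in the other. Dmkn, next to Krtdap on the chromosome, was at 0.257 CPM in untreated and 9.26 in treated HDAC1–E63R cells and at 0.18 and 16.9 in HDAC1–Y48E cells.

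None of the 19 p53 targets was called up in either mutant line by edgeR or DESeq2, with 4 in HDAC1–E63R and 3 in HDAC1–Y48E cells higher at an unadjusted p under 0.05 in edgeR. Bbc3, Gdf15 and Pmaip1 were called down in HDAC1–E63R cells, and Bbc3 and Gdf15 in HDAC1–Y48E cells, with list medians of -0.26 and -0.30. The median in HDAC1-WT cells was also -0.30, with none called and 10 of 19 lower at an unadjusted p under 0.05 in edgeR. Cdkn1a and Mdm2 were not called in any line. Without HDAC1–E63R untreated replicate 3, Bbc3 and Pmaip1 were no longer called in HDAC1–E63R cells, and 2 of the list were. Without that library, HDAC1–E63R cells had called up 0 structural keratins, 5 simple keratins, 4 regulators, 5 adhesion genes, 1 desmosome gene and 2 late differentiation genes.

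**Figure D4:**
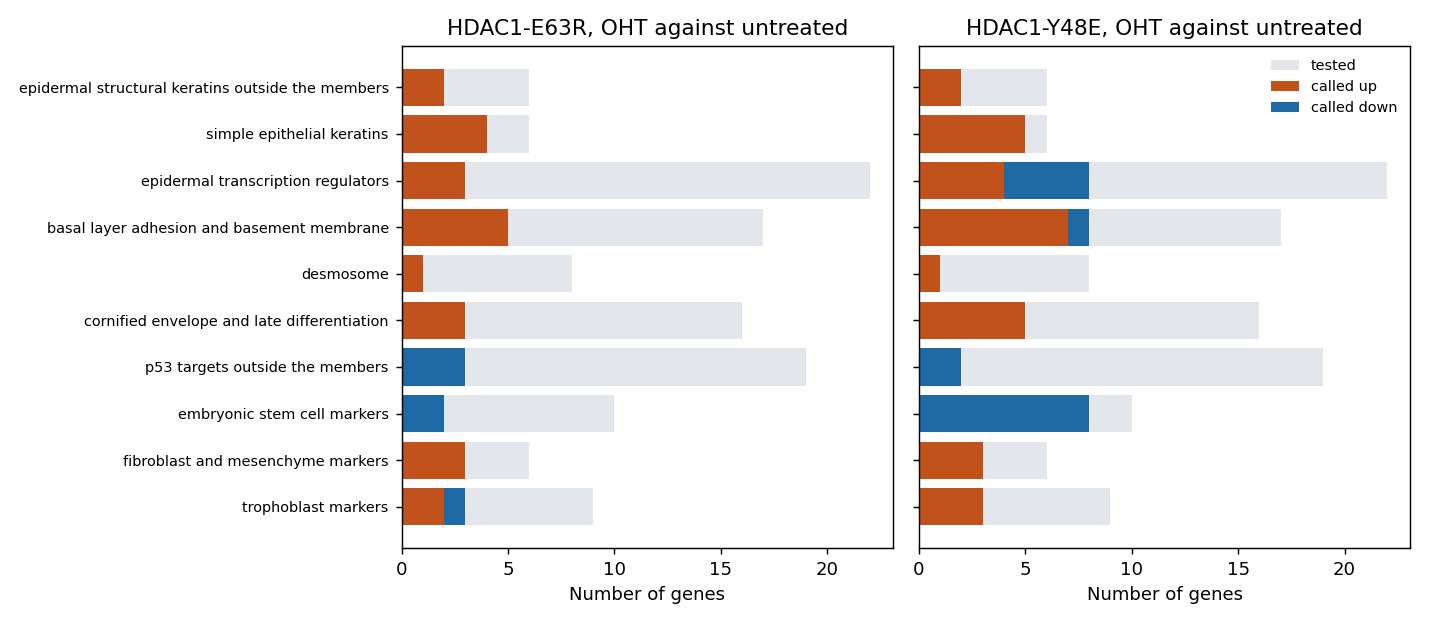
Number of genes tested (grey), called up (orange) and called down (blue) in OHT-treated against untreated HDAC1–E63R (left) and HDAC1–Y48E cells (right) for the 10 gene lists. Simple epithelial keratins and ESC markers hold the largest called shares in HDAC1–Y48E cells.

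Some markers of other cell types also changed after OHT in the mutant lines, ESC markers downward and fibroblast and trophoblast markers mostly upward among those called. The summed level of the 10 ESC markers was 6584 to 6662 CPM in untreated and 2673 to 2830 in treated HDAC1–Y48E cells, with 8 of 10 called down, and 6026 to 9715 and 4970 to 5321 CPM in HDAC1–E63R cells, with 2 called down and 1 without HDAC1–E63R untreated replicate 3. The summed level of the 10 fibroblast markers was 135 to 137 CPM in untreated and 243 to 269 in treated HDAC1–Y48E cells, with 3 of 6 tested called up in each mutant line and 2 of the 10 at 0. That of the 15 trophoblast markers was 119 to 146 and 217 to 233 CPM, with 3 of 9 tested called up in HDAC1–Y48E cells and 2 up and 1 down (Ascl2) in HDAC1–E63R cells. Ascl2 was not called there without HDAC1–E63R untreated replicate 3, and DESeq2 also called it down in HDAC1–Y48E cells. The summed trophoblast level in HDAC1-WT cells lay above these ranges, at 243 to 264 CPM untreated and 245 to 267 treated. Most of that sum was Tfap2c, with group means of 178 CPM untreated and 190 treated in HDAC1-WT cells. In HDAC1–Y48E cells Tfap2c was at 59.5 and 54.1 CPM, so the order of the sums rests largely on that gene and not on the list as a whole. The part of these marker genes in the levels of the 9 genes was not tested. In HDAC1-WT cells no gene of any of these lists was called, of 118 tested, and DESeq2 called none either. Among all 18791 tested genes 7 were called up and 3 down there, so a count of 0 is near that share. At an unadjusted p under 0.05 in edgeR, 12 of the 118 were higher and 16 lower. Of all 18791 tested genes, 1852 were under that limit in either direction.

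Genes within 100 kb of the 9 were looked at after their values were seen. Krt19, 54497 bases from Krt14 and 4882 bases from Krt15, was called up in both mutant lines, and so was Krt20 near Krt10. Krt42, 1853 bases from Krt17, was at 22.9 CPM in treated HDAC1–E63R and 8.95 in treated HDAC1–Y48E cells and was not called. In both mutant lines 2 of 3 tested neighbours of Krt5, 2 of 4 of Krt14, 2 of 2 of Krt15, 1 of 6 of Krt17 and 1 of 4 of Krt10 were called up, and these share genes. Some are among the 9 genes themselves: Krt14 was counted for Krt15 and Krt17, and Krt17 for Krt14. Gm44323, counted for Krt5, overlaps it on the opposite strand. Krt6a, also counted for Krt5, and Gm44323 and Krt14 passed the filter on low counts only through the treated mutant groups. The counts of called neighbours therefore depend in part on which silent genes became testable. Of all tested genes, 4.74% were called up in HDAC1–E63R and 10.8% in HDAC1–Y48E cells, so these counts are a description. For Krtdap 2 of 10 were called up in HDAC1–E63R and 3 of 10 in HDAC1–Y48E cells. The 1 tested neighbour of Trp63, the 7 of Sfn and the 1 of Perp were not called in either line.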

How the data were processed

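RNA-seq counts per gene were deposited for 18 libraries. Per the labels, the authors aligned reads to mm10 with HISAT2 2.1.0, used SAMtools 1.9 and counted reads with HTSeq, so the deposited values are raw counts for 53672 gene symbols. The annotation and the strand setting are not given in the sources used here. The 5 entries that name no gene held 59.4 to 61.2% of all counts of a library and were left out of library sizes and tests. Among them, the entry for no feature held 42.9 to 45.9% of all counts. Genes were kept by filterByExpr (18791 tested) and fitted with edgeR 4.0.16 in R 4.3.3 (TMM, 1 mean per group, quasi-likelihood test, 12 residual degrees of freedom), with Benjamini-Hochberg adjustment over all tested genes. A call needed an adjusted p under 0.01 and over 2-fold. The SE of a log2 change was derived as its absolute value over the square root of the test's F statistic. It is not reliable where groups are at or near 0. Where an untreated group had no counts, the fold is a lower bound against 3 counts per library, and with 1 to 3 counts it is a ratio with an exact 95% interval, both for counting error only. DESeq2 1.42.0 was an alternative, and DESeq2 is the tool that the study names for its adjusted p-values. Positions and overlaps came from GENCODE M21, and near-identical copies from blastn 2.17.0. The scripts were tested on simulated data. Deviations of same-numbered libraries of a line were only weakly correlated (-0.019 to 0.044), though most correlated best with their own number. Replicate numbers were not used as pairs in the main fit, and a fit with the replicate block was an alternative. Genes of the lists were named by a rule: 20 set genes whatever their values (some are not reported here), and up to 3 called genes per list and direction by level. The 9 genes and the lists were chosen with earlier results of these data known. P-values measure the spread between the libraries of a group.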

Additional observations from a re-analysis of the deposited data

Results flagged for a closer look

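These 7 differences between lines in the OHT effect passed the test of the difference itself (edgeR interaction contrast, 3 libraries in each group). Against HDAC1-WT, the effect in HDAC1–E63R cells was larger by 3.36 log2 units for Krtdap (adjusted p 0.0036), 1.44 for Sfn (adjusted p 1.49e-04) and 1.54 for Perp (adjusted p 5.66e-05). Against HDAC1-WT, the effect in HDAC1–Y48E cells was larger by 1.88 for Krt17 (adjusted p 4.07e-05), 2.97 for Krtdap (adjusted p 0.00217), 1.92 for Sfn (adjusted p 6.57e-07) and 1.27 for Perp (adjusted p 8.24e-05). Perp was lower in untreated HDAC1–E63R and HDAC1–Y48E than in untreated HDAC1-WT cells, by -1.19 and -1.33 log2 units, and its treated levels were not called different from HDAC1-WT. Tested against a 2-fold difference (glmTreat), 0 of the 3 and 1 of the 4 (Sfn) remained called, and the Krtdap difference of HDAC1–E63R had an adjusted p of 0.0102 to 0.016 in 6 fits that each left out 1 library.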

How the results depend on the processing

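Of the 11 counts of the 9 genes called, 157 of 172 values under an alternative were within 1.5 times the main value. Testing against a 2-fold change (glmTreat) left 0 genes for HDAC1–E63R minus HDAC1-WT, 1 for HDAC1–Y48E minus HDAC1-WT, 0 for OHT-treated HDAC1–Y48E against HDAC1–E63R and 0 in each untreated comparison. An adjusted p limit of 0.05 and DESeq2 each gave 1 (Krt17) for HDAC1–Y48E minus HDAC1–E63R. Leaving out 1 library gave 0 to 1 for that difference and 0 to 1 for OHT-treated HDAC1–Y48E against HDAC1–E63R, where the main count was 2; the cause was not tested. With the replicate block that last count was 1, and the calls of Trp63 and Krt10 in HDAC1–Y48E cells were lost (adjusted p 0.0193 and 0.0114 in edgeR); 7 of 9 same-numbered pairs correlated best with their own number. The Krt5 effects against HDAC1-WT were called by DESeq2 but not by edgeR. Fitting the compared libraries alone lost the Krt17 call in HDAC1–E63R cells (adjusted p 0.012). For the 9 genes, 1302 of 1364 values kept their call, 47 lost it, 15 gained it and 0 called values changed sign. Depth limits Krt15, Trp63 and all values under 3 counts.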
